A study of Mus musculus with 45 samples.

Results

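The loci described here belong to 10 genes of the FGF-ERK pathway in mouse embryonic stem cells (mESC). They are the feedback inhibitors Spry1, Spry2, Spry4, Dusp4 and Dusp6, the transcription factors Etv4, Etv5 and Egr1 that act at the end of the pathway, and the receptors Fgfr1 and Fgfr2. In ATACseq the transposase Tn5 cuts DNA that is accessible, so the number of sequenced fragments in a peak measures how open that region is. A peak was taken when its summit lay within 40 kb of the 5' end of one of the 10 genes in the GENCODE annotation of mm10. This rule took 158 of the 184964 peaks of the study, from 9 at Fgfr2 to 20 at Fgfr1. For 150 of the 158 peaks the nearest start of a protein-coding gene was that of the gene itself, 80 lay between genes, 59 lay in introns and 22 lay within 500 bp of an annotated transcript start. Positions are given as the distance of the summit from the 5' end of the gene, with + for downstream.

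Each of 3 mESC lines carried an FKBP tag on both alleles of a transcription factor, so that 500 nM dTAG-13 led to degradation of SOX2, OCT4 or NANOG. SOX2-FKBP cells were derived from E14 mESC of the IB10 line, NANOG-FKBP cells from E14 mESC and OCT4-FKBP cells from V6.5 mESC, and each line is clonal, so a difference between lines in factor and in background cannot be told apart. Controls were cells of the same line treated with DMSO (NT). SOX2-FKBP cells were followed for 0.5, 1, 2, 6 and 24 h and the other lines for 2, 6 and 24 h, with 2 libraries per group, except for 3 per treated group in NANOG-FKBP cells. All groups, NT included, grew in serum-free medium with LIF, the MEK inhibitor PD0325901 (1 µM) and the GSK3 inhibitor CHIR99021 (3 µM), so signalling from MEK to ERK was inhibited before and during depletion of a factor. ATACseq does not measure the tagged protein, and RNA of these genes was not analysed here.

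FGF4 made by mESC binds FGF receptors and acts through RAS, RAF, MEK and ERK, and this signal primes the cells to leave naive pluripotency. ERK turns on its own inhibitors: Sprouty proteins dampen the signal upstream of ERK, and the phosphatases DUSP4 and DUSP6 remove the activating phosphates from ERK itself. ETV4 and ETV5 are ETS factors and EGR1 is an immediate early zinc finger factor, all of them induced by ERK.

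Total counts in peaks lay between 1817191 and 17575631 per library. The treated replicate 2 libraries of NANOG-FKBP cells were the shallowest and held 13.18% to 17.56% mitochondrial counts, against at most 6.65% in every other library. Chromosome 8, which carries Dusp4 and Fgfr1, took 5.17% to 5.35% of the counts in SOX2-FKBP libraries, 7.41% to 7.71% in OCT4-FKBP libraries, and either 5.51% to 5.8% or 7% to 7.1% within NANOG-FKBP cells, where NT replicate 2 and the treated replicates 3 had the higher share. Its part in the results was not tested. Promoters of 5 of 6 naive pluripotency markers had a peak, with NT levels between 14.5 and 478.8 counts per kb of peak, and Pou5f1 had none within 1 kb of its 5' end. Peaks were also present at 4 of 4 primitive endoderm promoters (31.1 to 76.7 counts per kb), 4 of 4 trophectoderm promoters (8.4 to 135.4) and 2 of 4 fibroblast promoters (17.1 to 43.7), so the presence of a peak did not separate these cell types. By level, Nanog, Zfp42, Tfcp2l1 and Klf4 had 149.6 to 478.8 counts per kb, above every promoter of the other lists in each line. Esrrb, with 14.5 to 27.8, did not. The paper reports duplicates and, for SOX2, also an independent clone, but the labels do not say which libraries came from separate cultures or clones. P-values thus measure the spread between these libraries, which may be technical. In NANOG-FKBP cells NT and treated groups also mix libraries of both chromosome 8 shares in unequal proportions.

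The sequences around 5 summits are shown because the results below turn on these peaks: an intronic Dusp6 peak and a distal Spry2 peak lost after SOX2 depletion, another Spry2 peak with opposite changes after SOX2 and OCT4 depletion, an intronic Etv5 peak lost in all 3 lines, and a peak upstream of Fgfr1 gained at 24 h. Each is 200 bases of the plus strand of the mm10 reference around the summit, and capitals mark matches to the SOX pattern CNTTGT on either strand or to the POU pattern ATGCNAAT. The Dusp6 window is chr10:99265359-99265558, the Spry2 windows are chr14:105920859-105921058 and chr14:105900825-105901024, the Etv5 window is chr16:22403789-22403988 and the Fgfr1 window is chr8:25483509-25483708.
Dusp6 +2.23 kb: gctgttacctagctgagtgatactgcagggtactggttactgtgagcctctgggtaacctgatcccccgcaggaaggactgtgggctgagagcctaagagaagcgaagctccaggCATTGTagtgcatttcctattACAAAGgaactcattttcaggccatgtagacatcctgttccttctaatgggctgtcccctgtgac
Spry2 -24.14 kb: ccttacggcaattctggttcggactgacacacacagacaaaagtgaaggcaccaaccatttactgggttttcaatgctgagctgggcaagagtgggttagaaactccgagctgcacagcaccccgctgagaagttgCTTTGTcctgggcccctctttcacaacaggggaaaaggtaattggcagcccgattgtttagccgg
Spry2 -4.11 kb: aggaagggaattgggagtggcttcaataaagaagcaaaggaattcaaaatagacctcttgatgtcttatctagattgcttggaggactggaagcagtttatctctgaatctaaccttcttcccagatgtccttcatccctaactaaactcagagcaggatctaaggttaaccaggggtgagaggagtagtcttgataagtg
Etv5 +35.83 kb: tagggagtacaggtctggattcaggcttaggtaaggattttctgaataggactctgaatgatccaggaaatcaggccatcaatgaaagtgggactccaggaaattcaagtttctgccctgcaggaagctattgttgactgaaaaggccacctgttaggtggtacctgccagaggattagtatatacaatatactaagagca
Fgfr1 -35.15 kb: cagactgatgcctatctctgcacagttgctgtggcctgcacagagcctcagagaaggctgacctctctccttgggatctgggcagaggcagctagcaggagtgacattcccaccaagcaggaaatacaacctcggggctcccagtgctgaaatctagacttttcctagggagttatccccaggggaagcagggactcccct

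The Dusp6 window held 2 SOX matches on opposite strands and the distal Spry2 window held 1, while these letters did not occur in the other 3 windows. Over whole peaks, the SOX pattern was present in 118 of 158 peaks near the 10 genes (74.68%) and in 73.47% of all peaks, and the POU pattern in 16 (10.13%) and 9.14%. The SOX pattern followed after 1 base by ATGNNNAN occurred in 1 peak (0.63%, against 1.04% of all peaks), at +18.11 kb of Dusp4. The pattern GGGNGTGG of KLF factors was found in 31.01% of these peaks and 31.36% of all, and the pattern CCGGAAG of ETS factors in 8.86% and 7.92%. All patterns were searched on both strands. Within 200 bases around the summit the POU pattern was present in 2 of the 158 peaks (1.27%, against 3.7% of all), the SOX pattern in 36.71% (37.3%), the KLF pattern in 11.39% (13.11%) and the ETS pattern in 3.16% (2.97%). A match is a description of the letters only.

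Accessibility at 70 of the 146 tested peaks was called lost or gained at 2, 6 or 24 h after depletion of SOX2 or OCT4, where 34.0% of all tested peaks were. A peak was called lost or gained when edgeR's quasi-likelihood test against NT of the same line had an adjusted p below 0.05 over all peaks tested. Of the 158 peaks, 146 had enough counts to be tested in the 27 libraries of NT, 2, 6 and 24 h, and 137 in the 12 SOX2-FKBP libraries used for 0.5 and 1 h.

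After SOX2 depletion 2 of 137 peaks were lost at 0.5 h and 0 gained, where 3.14% and 0.158% of all tested peaks were, and 10 were higher at an unadjusted p below 0.05 (DESeq2 called 0). At 1 h 7 were lost and 1 gained (5.46% and 0.889% of all). At 2 h 5 of 146 were lost and 4 gained (5.06% and 0.574% of all), and at 6 h 6 were lost and 7 gained (6.83% and 1.18% of all). At 24 h 15 were lost and 13 gained (10.9% and 4.87% of all), and the median log2 change over the tested peaks was 0.21, against 0.06 over all. The share lost was thus near or below that of all peaks at every time, and the share gained at 2, 6 and 24 h was 2.74%, 4.79% and 8.9%. The gains depended on single libraries and on the filter, numbering 0 to 3, 1 to 2 and 4 to 8 with 1 library left out and 0, 2 and 1 under a filter of 10 or more counts per library.

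After OCT4 depletion 4 peaks were lost and 9 gained at 2 h (5.1% and 1.92% of all), and 11 were lost and 16 gained at 6 h (7.97% and 4.12% of all). At 24 h 29 were lost and 13 gained (12.7% and 10.8% of all), and the median log2 change was -0.10, against -0.01 over all peaks. Losses at 24 h made up 19.86% of the tested peaks, and most of the 29 lay at 2 genes, with 12 at Spry4 and 8 at Etv5. Under a filter of 10 or more counts per library losses outnumbered gains at each time, with 3 and 1 at 2 h, 8 and 2 at 6 h and 18 and 3 at 24 h, and without OCT4-FKBP NT replicate 1 there were 4 losses and 3 gains at 2 h. Scaled by total counts, where the median of all peaks at 24 h moved to -0.14, the calls were 35 lost and 9 gained, and in SOX2-FKBP cells 16 lost and 9 gained.

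NANOG depletion gave 5 losses at 2 h, then 5 at 6 h and 7 after 24 h, where 0.938%, 1.08% and 2.25% of all peaks were lost. No gain was called by edgeR or DESeq2 at 2, 6 or 24 h (0.0162%, 0.0367% and 0.288% of all peaks), and 1, 0 and 6 peaks were higher at an unadjusted p below 0.05. All 7 peaks lost at any time lay at 3 genes: 4 at Spry4, 1 at Etv5 and 2 in the Etv4 window, of which the peak at +37.35 kb lies nearest to Dhx8.

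**Figure D1:**
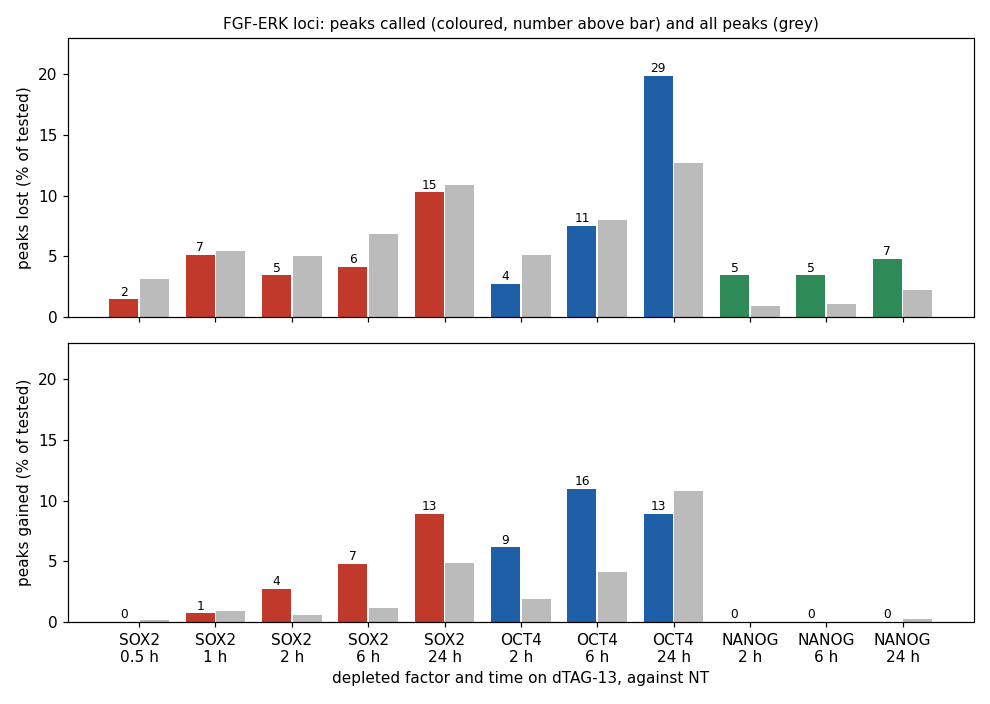
Share of tested peaks lost (top) and gained (bottom) against NT, in percent, for each depleted factor and time; coloured bars are the peaks near the 10 genes with their number on top, and grey bars are all tested peaks. Losses after OCT4 depletion reached 29 peaks at 24 h, and gains were most numerous at 6 h of OCT4 depletion with 16 peaks.

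Of 15 peaks lost at 24 h after SOX2 depletion and 29 after OCT4 depletion, 10 were shared, which is 66.7% of the former and 34.5% of the latter, where over all tested peaks 61.5% and 52.8% were shared. Of 13 gained in each line, 4 were shared (30.8% of each, against 38% and 17.1% over all peaks). At 2 h 0 of the 5 lost in SOX2-FKBP and 4 lost in OCT4-FKBP cells were shared, where 50% and 49.7% of all lost peaks were, and these counts moved with single libraries. The test of the difference between the SOX2 and OCT4 responses called 3 peaks lower and 3 higher after SOX2 depletion at 2 h (1.2% and 0.374% of all peaks). At 6 h it called 3 lower and 4 higher (1.88% and 0.847%), and at 24 h 0 lower and 7 higher (1.67% and 1.1%), with 7 lower at an unadjusted p below 0.05 and 1 lower by DESeq2. Against NANOG at 24 h, the SOX2 response was lower at 3 peaks and higher at 3 (5.59% and 1.19% of all), and the OCT4 response was lower at 15 and higher at 2 (6.0% and 2.89%). These comparisons share each line's NT libraries.

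**Figure D2:**
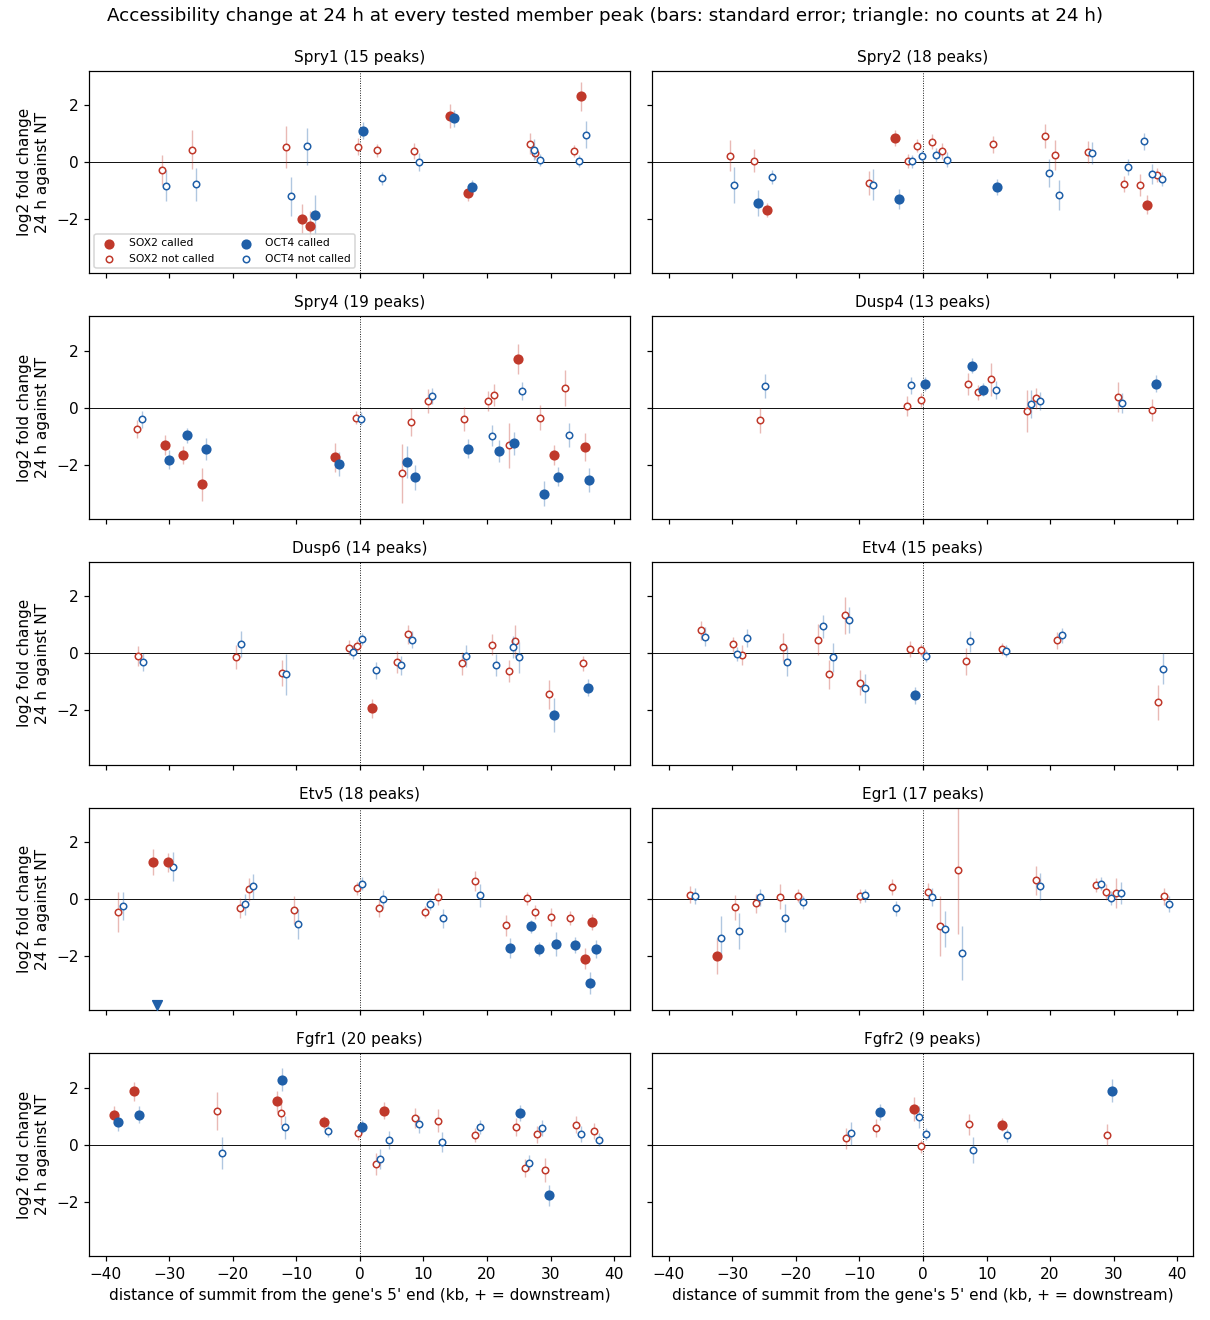
Log2 fold change at 24 h against NT (vertical axis) of every tested peak by the distance of its summit from the gene's 5' end in kb (horizontal axis), with SOX2-FKBP in red and OCT4-FKBP in blue and filled points for called peaks. Bars are standard errors derived from the F statistic of the test. The OCT4 losses gather at Spry4 and in the downstream part of Etv5, while called points at Dusp4 and Fgfr2 lie above 0.

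Few of the tested peaks lay at transcript starts, and so did few of the called ones. Of 22 peaks within 500 bp of a transcript start, 1 was lost and 1 gained after 24 h of SOX2 depletion and 2 were lost and 3 gained after 24 h of OCT4 depletion, against 14 and 12, and 27 and 10, of the other 124 tested peaks. Among all tested peaks at transcript starts, 3.18% were lost and 7.45% gained after SOX2 depletion and 4.64% and 34.5% after OCT4 depletion. Away from transcript starts these shares were 12.1% and 4.44% after SOX2 depletion, and 14% and 6.96% after OCT4 depletion. A peak lay within 1 kb of the 5' end for 9 genes, Egr1 being the exception, and of these 9 promoters none was lost at any time in any line. In NT SOX2-FKBP cells their levels ran from 67.2 ± 5.3 counts per kb at Fgfr2 (SD, n = 2) and 80.7 ± 9.7 at Spry1 over 94.6 ± 6.3 at Dusp4, 98.9 ± 11.2 at Spry4, 123.1 ± 3.7 at Fgfr1 and 157.3 ± 10.6 at Etv4 to 188.7 ± 7.7 at Dusp6, 198.5 ± 1.3 at Etv5 and 200.8 ± 7.5 at Spry2. The NT libraries of Dusp4 and Spry4 overlapped, as did those of Etv5 and Spry2, and those of the other neighbours in this order did not.

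Of these promoters 3 passed the test, all after 24 h of OCT4 depletion and all upward. Among all tested peaks at transcript starts 34.5% were gained in this comparison, with a median log2 change of 0.45, so such a rise was not particular to these genes. The Spry1 promoter rose from 118 and 111 normalized counts in NT to 316 and 172, a log2 change of 1.11 (SE 0.29, adjusted p = 0.00394). Here and below the standard error (SE) is the size of the log2 change divided by the square root of the test's F statistic. The Dusp4 promoter rose from 497 and 435 to 979 and 656 (0.83, SE 0.23, adjusted p = 0.00707), and that of Fgfr1 from 277 and 225 to 457 and 309 (0.63, SE 0.23, adjusted p = 0.0445). In each case both treated libraries lay above both NT libraries, and replicate 1 lay higher than replicate 2 at 24 h. Without the OCT4-FKBP 24 h replicate 1 library none of the 3 passed the test, and the adjusted p of the Spry1 promoter was 0.268. The Dusp6, Etv5 and Spry2 promoters had log2 values of 0.50, 0.54 and 0.20 in the same comparison and did not pass (adjusted p = 0.0908, 0.0975 and 0.593). With a replicate block the Dusp6 and Etv5 promoters passed in this comparison (0.48 and 0.51, adjusted p = 0.0127 and 0.0039), as did the Spry4 promoter downward (-0.40, adjusted p = 0.0482) and, after 24 h of SOX2 depletion, that of Spry2 upward (0.57, adjusted p = 0.0058).

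Spry4, which encodes a Sprouty inhibitor, had the most losses. At 24 h 12 of its 18 tested peaks were lost after OCT4 depletion and 6 after SOX2 depletion, with 1 gained in SOX2-FKBP cells, and 4 were lost after NANOG depletion. Over all tested peaks at 24 h, 12.7% were lost and 10.8% gained after OCT4 depletion, and 10.9% and 4.87% after SOX2 depletion. After NANOG depletion 2.25% of all were lost. These shares also apply to the counts per gene at 24 h below. Summed over the 19 peaks, accessibility at 24 h was 45.8% of NT after OCT4 depletion, 61.7% after SOX2 depletion and 85.3% after NANOG depletion. NT levels differed between lines, with 43.7 ± 3.8 counts per kb of peak in SOX2-FKBP cells (SD, n = 2), 121 ± 15.7 in OCT4-FKBP and 68.2 ± 17.9 in NANOG-FKBP cells, whose 2 NT libraries had 55.5 and 80.8. The promoter peak, from 38600843 to 38603059 on chromosome 18 of mm10, had log2 values of -0.35 after SOX2 and -0.39 after OCT4 depletion at 24 h that did not pass (adjusted p = 0.363 and 0.228), although the OCT4 value also passed when scaled by total counts and under the filter of 10 or more counts per library (adjusted p = 0.0436 and 0.014).

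The peak at +28.65 kb of Spry4 was lost after depletion of OCT4, and this response differed from those to SOX2 and NANOG. Its normalized counts in OCT4-FKBP cells were 134 and 177 in NT, 51.6 and 82.1 at 2 h, 34.9 and 39.6 at 6 h, and 29.7 and 7.54 at 24 h. The treated libraries lay below both NT libraries at each time, with log2 changes against NT of -1.19, -2.05 and -3.02 (SE 0.34, 0.35 and 0.44, adjusted p = 0.0204, 3.15e-05 and 1.53e-06). The 2 h call did not hold with DESeq2, and the 2 h value ran from -1.57 to -0.91 over 10 alternatives. In SOX2-FKBP cells the level was 43.7 and 36.1 in NT, 61.2 and 77.4 at 2 h and 31.2 and 31.4 at 24 h, which passed at no time. In NANOG-FKBP cells it was 44.2 and 95.2 in NT and 43.3, 94.2 and 68.7 at 24 h, overlapping NT, and the OCT4 response was lower by -2.87 (adjusted p = 0.000843). The SOX2 response exceeded the OCT4 response by 1.99, 2.73 and 2.67 log2 units at 2, 6 and 24 h (adjusted p = 0.032, 0.00103 and 0.0105). The 2 h difference was not called in 7 of 14 alternatives, and the 24 h difference had an adjusted p of 0.116 without OCT4-FKBP 24 h replicate 2.

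Other Spry4 peaks were lost in more than 1 line. At +30.85 kb the counts were 75.8 and 87 in NT and 26.4 and 24.2 at 24 h in SOX2-FKBP cells, and 243 and 295 in NT and 42.5 and 57.3 at 24 h in OCT4-FKBP cells. Neither pair overlapped, and the log2 changes were -1.65 and -2.42 (SE 0.36 and 0.33, adjusted p = 0.00082 and 4.17e-07). Both levels were still within or above the NT range at 2 h, so this loss was late. In NANOG-FKBP cells this peak fell from 119.7 and 198 to between 43.4 and 98.5 at 6 h and to between 54 and 116 at 24 h, by 1.38 and 1.25 on the log2 scale (adjusted p = 0.0104 and 0.0115). Neither call held without NANOG-FKBP NT replicate 2 (adjusted p = 0.312 and 0.304), and the 6 h call was also lost without 6 h replicate 1 and the 24 h call without 24 h replicate 1 or 3.

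At -24.57 kb, in an annotated intron upstream of the Spry4 5' end, NANOG depletion gave an early loss. The counts there were 26 and 54.6 in NT, 7.04, 6.16 and 14.9 at 2 h and 7.6, 0 and 4.82 at 24 h, log2 fold changes of -2.09 and -2.76 (SE 0.47 and 0.49, adjusted p = 0.014 and 0.000328). All treated libraries lay below both NT libraries at both times. After SOX2 depletion the counts went from 27.2 and 21.4 to 3.78 and 3.59 at 24 h (-2.69, SE 0.57, adjusted p = 0.000559), and after OCT4 depletion from 64.2 and 64.9 to 21.2 and 25.6 (-1.44, adjusted p = 0.00464). The neighbouring peak at -27.54 kb was lost at every NANOG time (-1.56, -2.09 and -1.68) and at 24 h after SOX2 and OCT4 depletion (-1.65 and -0.97). There the NANOG calls at 2 and 24 h did not hold without NANOG-FKBP NT replicate 1 (adjusted p = 0.177 and 0.0546), nor the OCT4 call without OCT4-FKBP 24 h replicate 1 or NT replicate 2 (adjusted p up to 0.132). The peak at +8.39 kb, in an intron of Spry4, passed at every NANOG time (-2.04, -2.21 and -2.31) and at 6 and 24 h of OCT4 depletion (-1.23 and -2.43). Its SOX2 value at 24 h was -0.49 (adjusted p = 0.563). The SOX2 response at 24 h was not called different from the OCT4 or NANOG response at this peak. Without NANOG-FKBP NT replicate 2 no NANOG call at +8.39 kb passed (adjusted p = 0.376, 0.248 and 0.11), nor did the 2 and 6 h calls at -24.57 kb (adjusted p = 0.384 and 0.47). The 6 h OCT4 call at +8.39 kb was lost without OCT4-FKBP NT replicate 2 (adjusted p = 0.526).

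**Figure D3:**
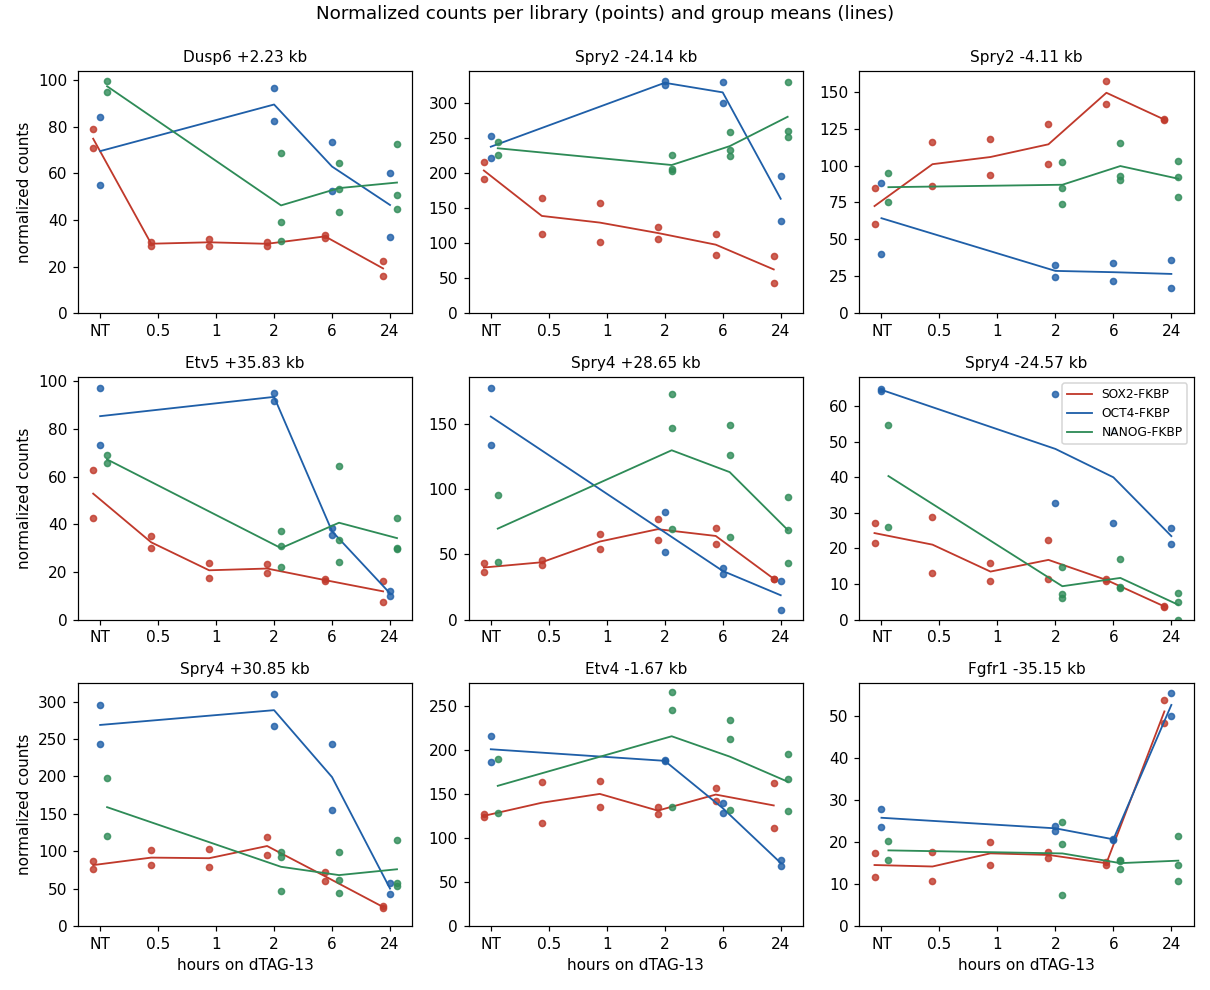
Normalized counts per library (points) and group means (lines) against hours of dTAG-13, with equal spacing of the times, for 9 peaks in SOX2-FKBP (red), OCT4-FKBP (blue) and NANOG-FKBP (green) cells. Dusp6 +2.23 kb falls from 70.8 and 79 to 30.8 and 28.9 within 0.5 h of SOX2 depletion, Spry4 +28.65 kb falls from 134 and 177 to 29.7 and 7.54 in OCT4-FKBP cells, and Fgfr1 -35.15 kb rises between 6 and 24 h of SOX2 and OCT4 depletion.

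Spry2, which also encodes a Sprouty inhibitor, had peaks that responded to SOX2 and to OCT4 in different ways. The distal peak at -24.14 kb, between genes, fell in SOX2-FKBP cells from 192 and 215 normalized counts in NT to 106 and 123 at 2 h, 82.8 and 113 at 6 h and 43.4 and 81.6 at 24 h. Both treated libraries were below both NT libraries from 0.5 h on, and the fall on the log2 scale was -0.73 after 1 h, -0.81 after 2 h, -1.04 after 6 h and -1.68 after 24 h (SE 0.22 to 0.25, adjusted p = 0.0386, 0.0274, 0.00199 and 1.86e-06). In OCT4-FKBP cells it stood at 222 and 253 in NT, 332 and 326 at 2 h and 195 and 131 at 24 h, with no call. The responses differed by -1.28 at 2 h and -1.45 at 6 h (adjusted p = 0.0229 and 0.00455), and by -1.15 at 24 h, which did not pass (adjusted p = 0.05). In NANOG-FKBP cells the level at 24 h, 251, 329.6 and 260.5, was above that of NT, 245 and 226, without a call, and the difference from the SOX2 response was -1.89 (adjusted p = 7.9e-05). The 1 h call was lost in 5 of 10 alternatives, the 2 h call in 3 of 11 and the 6 h call without SOX2-FKBP 6 h replicate 1 (adjusted p = 0.0733), while the 24 h call held in all 11.

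At -4.11 kb of Spry2 the changes ran in opposite directions. In SOX2-FKBP cells the counts were 84.8 and 60.2 in NT, 141 and 157 at 6 h and 131 and 131 at 24 h, a gain of 1.03 and 0.85 on the log2 scale (SE 0.28 and 0.28, adjusted p = 0.0112 and 0.0312). In OCT4-FKBP cells they were 40.2 and 88.4 in NT, 24.5 and 32.9 at 2 h, 21.7 and 33.9 at 6 h and 17 and 36.2 at 24 h, a loss of -1.16, -1.23 and -1.30 (adjusted p = 0.00985, 0.0028 and 0.00454). The treated libraries lay outside the NT range in both lines, and the responses differed by 1.81, 2.26 and 2.14 at 2, 6 and 24 h (adjusted p = 0.0106, 0.000405 and 0.00299). The OCT4-FKBP NT libraries are far apart, and without NT replicate 2 none of the 3 OCT4 losses passed (log2 -0.44, -0.49 and -0.61), nor did the differences between the responses (adjusted p = 0.363, 0.0575 and 0.113). Each OCT4 loss was also lost without the replicate 1 library of its own time, the SOX2 gain at 6 h without either 6 h library or SOX2-FKBP NT replicate 2 (adjusted p up to 0.273), and the SOX2 gain at 24 h was not called in 7 of 11 alternatives.

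Spry1, the remaining Sprouty gene, changed in both directions. Its peak at +14.51 kb rose in SOX2-FKBP cells from 9.06 and 5.35 in NT to 22.3 and 25 at 2 h and 21.7 and 24.2 at 24 h (log2 1.65 and 1.60, adjusted p = 0.00802 and 0.00517), and in OCT4-FKBP cells from 25.5 and 23 to 63.7 and 75.4 at 24 h (1.54, SE 0.30, adjusted p = 0.000125). The treated libraries exceeded both NT libraries each time, and in OCT4-FKBP cells the rise came between 6 and 24 h. The OCT4 call held in all 10 alternatives, whereas the SOX2 call at 2 h was lost in 3 of 10, without 2 h replicate 2 or either NT library (adjusted p up to 0.161), and that at 24 h without NT replicate 2 (adjusted p = 0.0863). Over all 15 Spry1 peaks, accessibility reached 126% of NT at 6 h of SOX2 depletion and 149% at 6 h of OCT4 depletion, and stood at 119% and 109.5% at 24 h. At 24 h 3 of 14 tested peaks were lost and 2 gained after SOX2 depletion and 2 lost and 2 gained after OCT4 depletion.

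Dusp6, whose product dephosphorylates ERK in the cytoplasm, held 1 of the 2 losses called at 0.5 h of SOX2 depletion, the other being at -8.7 kb of Spry1 (-1.66, adjusted p = 0.0352), which was chosen after its values were seen. The peak at +2.23 kb (mm10, chromosome 10, from 99265393 to 99265648) lies in an intron of the gene, within 500 bp of an annotated transcript start. In SOX2-FKBP cells its counts were 70.8 and 79 in NT, 30.8 and 28.9 at 0.5 h, 28.9 and 32 at 1 h, 30.6 and 29 at 2 h, 32.4 and 33.6 at 6 h and 16 and 22.4 at 24 h. It thus stood at 39.8% of NT after 0.5 h and 44.0% at 6 h, with a log2 fold change of -1.36 at 0.5 h (SE 0.24, adjusted p = 0.000376) and -1.93 at 24 h (SE 0.33, adjusted p = 2.5e-05). The 0.5 h call was lost without SOX2-FKBP 0.5 h replicate 1 (adjusted p = 0.0548) and the 6 h call without either 6 h library.

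In OCT4-FKBP cells the same Dusp6 peak had 54.9 and 84.2 counts in NT, 82.5 and 96.7 at 2 h and 32.6 and 60.4 at 24 h, overlapping NT at each time. The SOX2 and OCT4 responses differed by -1.66 at 2 h (adjusted p = 0.0188), which passed in 8 of 14 alternatives, and the differences at 6 and 24 h, -1.01 and -1.34, did not pass (adjusted p = 0.23 and 0.11). In NANOG-FKBP cells all treated libraries, between 30.8 and 72.8, were below the NT libraries of 95 and 99.9, with log2 values of -1.03, -0.95 and -0.92 that did not pass (adjusted p = 0.0781, 0.108 and 0.0703). The Dusp6 promoter, 54 bp upstream of the 5' end, had 265 and 281 counts in NT and 299 and 291 at 0.5 h of SOX2 depletion. It was not called in any line. At 24 h of OCT4 depletion 2 of 14 Dusp6 peaks were lost, at +30.16 and +35.52 kb (-2.17 and -1.20, adjusted p = 0.00609 and 0.00324), both chosen after their values were seen.

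Dusp4, whose product acts on ERK in the nucleus, gained accessibility after OCT4 depletion. Its intronic peak at +7.40 kb rose from 30.2 and 36.6 counts in NT to 71.6 and 60.2 at 2 h, 102 and 76.4 at 6 h and 79.3 and 106 at 24 h. Every treated library was above both NT libraries, and the log2 changes were 0.97, 1.41 and 1.47 (SE 0.25, 0.25 and 0.26, adjusted p = 0.0107, 4.18e-05 and 4.27e-05). The 2 h call was lost without OCT4-FKBP 2 h replicate 1 or NT replicate 1 (adjusted p up to 0.126). In SOX2-FKBP cells the peak was low, with 11.5 and 10.7 in NT and 15.1 and 24.2 at 24 h, and was not called. Of 10 tested Dusp4 peaks, 4 were gained and 0 lost at 24 h of OCT4 depletion, where 10.8% and 12.7% of all peaks were. The sum over the locus reached 167% of NT. No Dusp4 peak was called at any time after SOX2 or NANOG depletion, where the sums at 24 h were 121% and 112%. However, the SOX2 and OCT4 responses were not called different at any Dusp4 peak at 2, 6 or 24 h. Dusp4 also lies on chromosome 8, and its NANOG-FKBP libraries overlapped, with 52.8 and 70.1 counts per kb in NT and 55.8, 74 and 76.9 at 24 h.

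Etv5 lost a run of peaks in the downstream part of the gene after OCT4 depletion. These were 7 peaks between +23.34 and +36.88 kb, all lost at 24 h to between 12.9% and 50.9% of NT, with a median of 29.8%. Their order along the gene and the limits of the run were chosen after their values were seen. In SOX2-FKBP cells 2 of the 7 were lost at 24 h, and their levels lay between 22.4% and 101% of NT. In NANOG-FKBP cells 1 was lost, and the levels lay between 50.9% and 125% of NT. The OCT4 response was lower than the NANOG response at 6 of the 7, and lower than the SOX2 response at 1, the peak at +27.84 kb over a coding exon (1.31, adjusted p = 0.0223).

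The peak at +35.83 kb of Etv5 was the member of this run that passed in all 3 lines. In OCT4-FKBP cells its counts were 73.5 and 97.3 in NT, 95.1 and 91.9 at 2 h, 38.5 and 35.6 at 6 h and 9.91 and 12.1 at 24 h, so that the loss set in after 2 h (-1.20 at 6 h and -2.94 at 24 h, SE 0.27 and 0.38, adjusted p = 0.00152 and 2.03e-07). In SOX2-FKBP cells it went from 42.8 and 62.9 in NT to 23.9 and 17.4 at 1 h and 7.55 and 16.1 at 24 h (-1.33 and -2.09, adjusted p = 0.00372 and 4.34e-05). In NANOG-FKBP cells it went from 68.9 and 65.5 to 21.9, 30.8 and 37.3 at 2 h and 29.7, 42.8 and 30.1 at 24 h (-1.28 and -1.09, adjusted p = 0.0383 and 0.0439), and each of these calls was lost in 6 of 12 alternatives. The treated libraries lay below NT in every case named. The Etv5 promoter, 548 and 407 in NT and 846 and 519 at 24 h of OCT4 depletion, was not called.

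Upstream of Etv5 the other peak lost at 24 h of OCT4 depletion, at -32.21 kb, had few counts and was chosen after its values were seen. SOX2 depletion gave a gain there at 24 h from 8.24 and 9.37 to 20.8 and 21.5 (1.29, adjusted p = 0.0493). No fragment was counted there in either OCT4-FKBP 24 h library, against 10.1 and 5.76 normalized counts in NT, and no fold is given.

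Etv4 lost the peak next to its promoter. At -1.67 kb the counts in OCT4-FKBP cells were 186 and 216 in NT, 188 and 189 at 2 h, 128 and 140.2 at 6 h and 68 and 75.4 at 24 h, and the loss was -1.47 at 24 h (SE 0.29, adjusted p = 0.000138). In SOX2-FKBP cells they were 124 and 127 in NT and 163 and 111 at 24 h, overlapping NT, and the difference between the responses was 1.62 (adjusted p = 0.0133). The difference from the NANOG response was -1.51 (adjusted p = 0.00788). The promoter peak beside it, with 362 and 404 counts in NT and 373 and 333 at 24 h, overlapped NT (-0.10, adjusted p = 0.789). Of the 14 tested Etv4 peaks, 1 was lost at 24 h of OCT4 depletion and 0 at 24 h of SOX2 depletion.

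Egr1 had the fewest called peaks of the 10 genes. Of 16 tested peaks, 1 was lost at 24 h of SOX2 depletion, at -32.07 kb (-1.98, adjusted p = 0.0245), and 1 at 2 h of OCT4 depletion, at -25.95 kb (-1.13, adjusted p = 0.0116). Both are intronic, lie nearest to the start of Reep2 and were chosen after their values were seen. The peak that covers the Egr1 start has its summit 1.13 kb downstream and was likewise chosen after its values were seen. It held 523 and 545 counts in NT and 665 and 596 at 24 h in SOX2-FKBP cells, and 1298 and 728 in NT and 1293 and 804 at 24 h in OCT4-FKBP cells, with no call.

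The receptor genes had more gains than losses called at 24 h, while most of their peaks were not called. At Fgfr1 5 of 18 tested peaks were gained and 0 lost at 24 h of SOX2 depletion, and 5 were gained and 1 lost at 24 h of OCT4 depletion. Over all peaks 4.87% were gained and 10.9% lost after SOX2 depletion, and 10.8% and 12.7% after OCT4 depletion. The locus sum rose in SOX2-FKBP cells to 119% of NT at 0.5 h and 144% at 24 h and in OCT4-FKBP cells to 134.5% at 24 h, while in NANOG-FKBP cells it was 96.1%. The NANOG-FKBP libraries were spread widely, with 73.3 and 99.2 counts per kb in NT and 65.4, 101 and 82.3 at 24 h. Fgfr1 lies on chromosome 8, whose share differed between these libraries. The peak at +4.18 kb, in an intron, rose from 37.1 and 29.4 counts to 88.8 and 74.1 at 1 h of SOX2 depletion and stayed at 85 and 67.3 at 24 h (1.22 and 1.19, adjusted p = 0.000795 and 0.0035). The 24 h call was lost without SOX2-FKBP 24 h replicate 1 or NT replicate 2 (adjusted p up to 0.0807). In OCT4-FKBP cells it rose from 26.3 and 49.7 to 94.2 and 112 at 2 h and 113 and 105 at 6 h (1.42 and 1.49, adjusted p = 0.000258 and 4.97e-05), and at 24 h it was back within the NT range at 29.7 and 57.3.

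The peak at -35.15 kb of Fgfr1 followed another course. Its counts were 11.5 and 17.4 in NT, 15.3 and 14.5 at 6 h and 48.1 and 53.8 at 24 h in SOX2-FKBP cells, and 27.8 and 23.5, 20.5 and 20.7, and 55.2 and 49.8 in OCT4-FKBP cells. The gain at 24 h was 1.88 and 1.06 (SE 0.33 and 0.30, adjusted p = 4.57e-05 and 0.00731), and neither line had a call before 24 h. The OCT4 call was lost without OCT4-FKBP 24 h replicate 1 or NT replicate 2 (adjusted p up to 0.0947). NANOG-FKBP cells had 15.6 and 20.3 in NT and 10.6, 21.4 and 14.5 at 24 h, and the SOX2 response exceeded theirs by 2.29 (adjusted p = 0.0031). At Fgfr2 2 of 7 tested peaks were gained and 0 lost at 24 h in each of SOX2-FKBP and OCT4-FKBP cells, where 4.87% and 10.8% of all peaks were gained. Its peak at -7.12 kb lies upstream of the 5' end used here, in an annotated intron. This peak rose from 30.9 and 40.8 to 76.5 and 83 at 24 h of OCT4 depletion (1.15, SE 0.29, adjusted p = 0.00241), above both NT libraries. The locus sum reached 139% and, in SOX2-FKBP cells, 126% of NT.

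**Figure D4:**
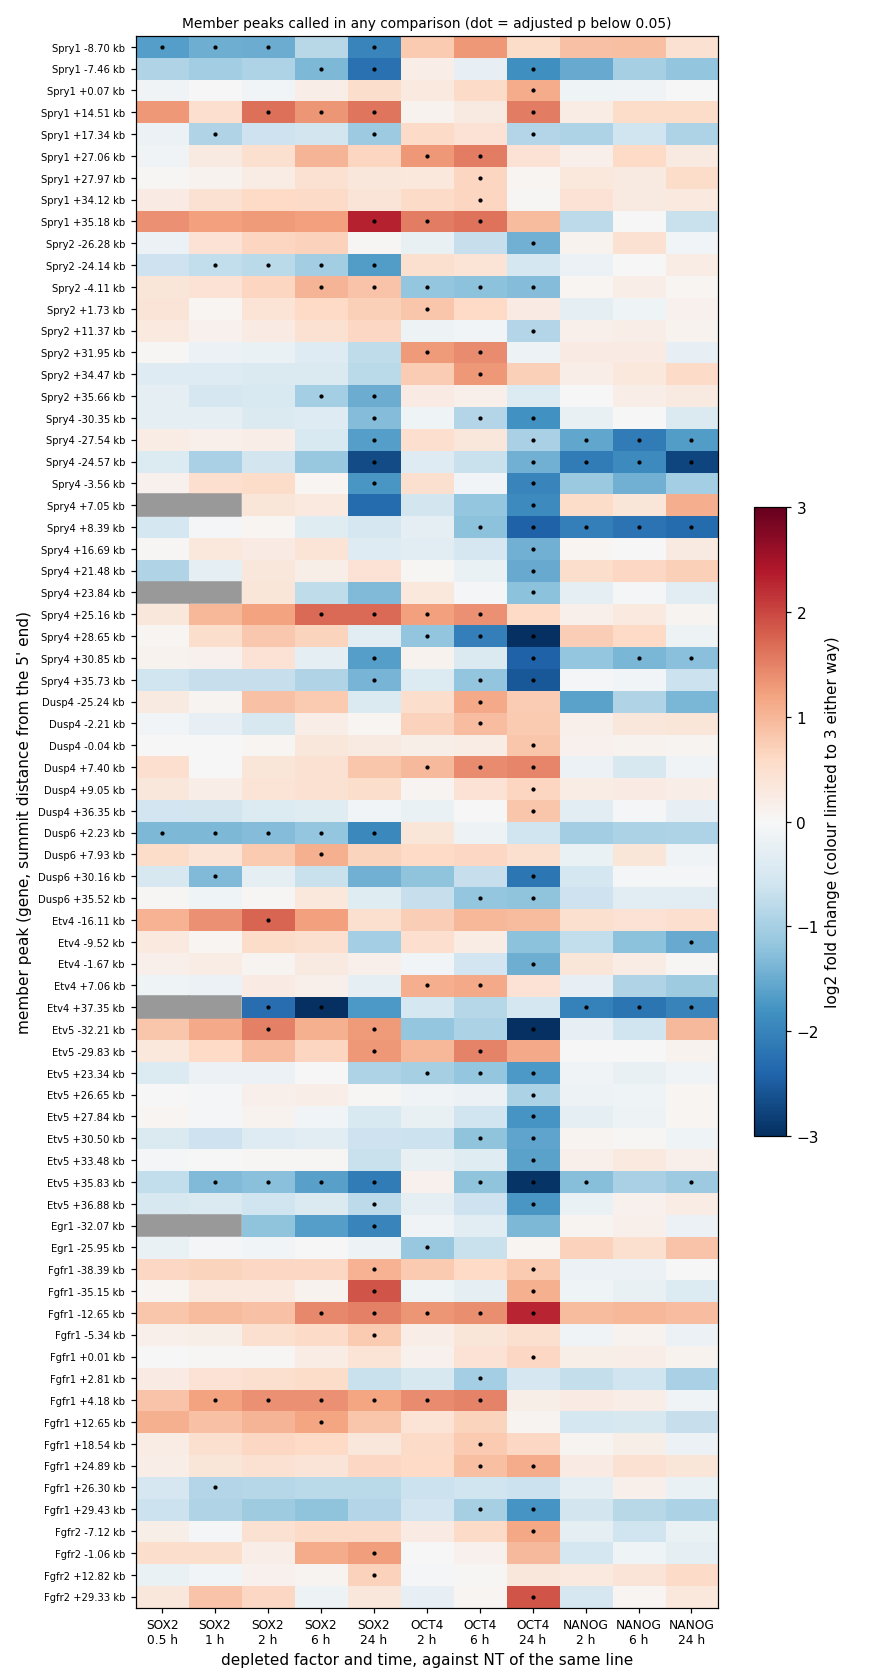
Log2 fold change against NT (colour, limited to 3 in either direction) of the 72 peaks called in any comparison with NT, one per line and ordered by gene and position, for each depleted factor and time; dots mark an adjusted p below 0.05 and grey marks peaks not tested. Blue stretches mark Spry4 and the downstream Etv5 peaks at 24 h of OCT4 depletion, and the NANOG columns hold dots at 7 peaks only.

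For the wider pathway, 56 other genes of FGF-ERK signalling were listed, from ligands and adaptors to RAS, RAF, MEK and ERK genes and targets. Of these 54 had peaks by the same rule, 808 in all, of which 756 were tested in the 27 libraries. At 24 h 42 were lost and 41 gained after SOX2 depletion, 85 lost and 94 gained after OCT4 depletion, and 8 lost and 1 gained after NANOG depletion. These are 5.56%, 11.24% and 1.06% lost, against 10.9%, 12.7% and 2.25% of all peaks, and 5.42%, 12.43% and 0.13% gained, against 4.87%, 10.8% and 0.288%. With 1 library left out the SOX2 gains numbered 5 to 26. The genes named next were chosen after their values were seen. Fgf4, the ligand that mESC make themselves, had 19 peaks, of which 7 were lost at 24 h of SOX2 depletion and 10 at 24 h of OCT4 depletion, and its promoter fell by 0.63 and 1.09 on the log2 scale (adjusted p = 0.0342 and 0.000196). Its window overlaps that of Fgf15, where 5 and 6 of 15 peaks were lost, so a peak can count for both genes. Of the immediate early genes, Fos had 17 peaks, of which 5 and 4 were gained in the same comparisons and 0 lost, with promoter gains of 0.96 and 0.89 (adjusted p = 0.0113 and 0.0112). Ier2 had 27 peaks, of which 1 and 5 were lost and 0 gained, and Junb had 21, of which 1 was lost after SOX2 depletion and 2 lost and 1 gained after OCT4 depletion.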

How the data were processed

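ATACseq libraries of the SOX2-FKBP, OCT4-FKBP and NANOG-FKBP lines were grouped by line and time from the sample labels. The authors aligned reads to mm10 with BWA mem 0.7.17-r1188, discarded reads of mapping quality under 10 and duplicates (Picard 2.12.0, SAMtools 1.10), merged libraries for MACS2 peak calling and deposited raw counts per peak and library. The table holds 31 libraries and 184964 peaks, and the other 14 of the 45 samples were not analysed here.

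The members and lists were chosen with earlier results of these data known. The 5' end of a gene was the most upstream start among its CCDS transcripts. Counts were tested with edgeR 4.0.16 in R 4.3.3 (quasi-likelihood test, TMM scaling, Benjamini-Hochberg over all peaks, threshold 0.05). The 27 libraries of NT, 2, 6 and 24 h shared one fit over the 166430 peaks that exceeded 10 counts in over 6 libraries. The 12 SOX2-FKBP libraries gave 0.5 and 1 h, over the 160432 that did so in over 2. Differences between responses are interaction terms of the 27 library fit. Normalized counts are the deposited counts scaled by TMM to the mean library size, and the scripts were tested on simulated data.

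Named peaks were, per gene, the peak within 1 kb of the 5' end and the peak with the lowest adjusted p after SOX2 or OCT4 depletion, averaging 50 or more normalized counts in the higher group with treated libraries on one side of NT. The 3 largest gains and losses at 24 h in each of these lines and the 3 NANOG peaks with the lowest adjusted p were added, which gave 26 peaks. Alternatives were DESeq2 1.42.0, its size factors, total counts, other count filters, only the groups compared, a replicate block, a 20 kb window and each library left out. Figures were drawn with matplotlib 3.10.9.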

Additional observations from a re-analysis of the deposited data

Results flagged for a closer look

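At 19 comparisons of named peaks the response differed between lines by edgeR's interaction test, with p-values adjusted over all peaks. All values are differences of log2 fold changes, and each line's NT libraries are shared between its comparisons.

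At Spry2 -24.14 kb the SOX2 response was lower than the OCT4 response by -1.28 at 2 h (adjusted p = 0.0229) and -1.45 at 6 h (adjusted p = 0.00455), of which the former was lost in 4 of 15 alternatives, and lower than the NANOG response by -1.89 at 24 h (adjusted p = 7.9e-05). At Spry2 -4.11 kb the SOX2 response exceeded the OCT4 response by 1.81, 2.26 and 2.15 at 2, 6 and 24 h (adjusted p = 0.0106, 0.000405 and 0.00299), lost in 4, 1 and 2 of 15 alternatives, and the OCT4 response was below the NANOG response by -1.36 (adjusted p = 0.0477), which did not pass in 12 of 17 alternatives.

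At Spry4 +28.65 kb the SOX2 response exceeded the OCT4 response by 1.99, 2.73 and 2.67 at 2, 6 and 24 h (adjusted p = 0.032, 0.00103 and 0.0105), lost in 7, 0 and 1 of 14 alternatives, and the OCT4 response was below the NANOG response by -2.87 (adjusted p = 0.000843). At Spry4 +35.73 kb the OCT4 response was below the NANOG response by -1.89 (adjusted p = 0.0307), which was lost in 5 of 17 alternatives. The same comparison gave -1.85 at Etv5 +35.83 kb (adjusted p = 0.016), lost in 2 of 16.

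At Etv4 -1.67 kb the SOX2 response exceeded the OCT4 response by 1.62 at 24 h (adjusted p = 0.0133), lost in 4 of 15 alternatives, and the OCT4 response was below the NANOG response by -1.50 (adjusted p = 0.00788), lost in 1 of 17. At Dusp6 +2.23 kb the SOX2 response was below the OCT4 response by -1.66 at 2 h (adjusted p = 0.0188), lost in 6 of 14. Against NANOG at 24 h, the OCT4 response was higher by 1.57 at Dusp4 +7.40 kb (adjusted p = 0.029), lost in 7 of 16 alternatives, and by 1.34 at Fgfr2 -7.12 kb (adjusted p = 0.0333), lost in 9 of 16. The SOX2 response was higher by 2.29 at Fgfr1 -35.15 kb (adjusted p = 0.0031), which held in all 16.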

How the results depend on the processing

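No called value changed its direction. Among values that were not called, that of Spry2 -0.57 kb, OCT4 24 h, turned from 0.20 to -0.11 without OCT4-FKBP 24 h replicate 1 (up to 0.455 with another library left out) and to -0.012 with at least 10 counts in every library, and that of Etv4 +0.07 kb, SOX2 24 h, from 0.12 to -0.007 without SOX2-FKBP NT replicate 1 (up to 0.146) and to -0.005 with at least 10 counts in every library. Of 86 called values at the named peaks, 32 held under every alternative and 54 were lost under at least 1.

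With a 20 kb window, losses after NANOG depletion numbered 1, 1 and 2 at 2, 6 and 24 h, OCT4 gains 5, 6 and 8 and losses 1, 3 and 9, SOX2 losses 3, 2, 2 and 5 at 1, 2, 6 and 24 h and SOX2 gains 7 at 24 h. Differences called numbered 2, 2 and 3 for SOX2 against OCT4 at 2, 6 and 24 h, 2 for SOX2 against NANOG and 6 for OCT4 against NANOG, and the other pathway genes had 4 NANOG losses, 56 OCT4 gains, 42 OCT4 losses, 20 SOX2 gains and 26 SOX2 losses at 24 h.

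DESeq2 called 3 NANOG losses at 2 h and 4 at 24 h, 2 and 6 OCT4 losses at 2 and 6 h, 1, 1 and 3 SOX2 losses at 0.5, 1 and 2 h and 3 SOX2 gains at 6 h, with 56 OCT4 losses and 24 SOX2 gains at the other pathway genes. With at least 10 counts in every library there were 0, 0 and 1 NANOG losses, 1, 2 and 3 OCT4 gains, 18 OCT4 losses at 24 h, 1 SOX2 loss at each of 0.5, 2 and 6 h, and 0, 2 and 1 SOX2 gains at 2, 6 and 24 h. The differences were then 2 and 3 for SOX2 against OCT4 at 2 and 6 h and 11 for OCT4 against NANOG, and the other pathway genes had 4 NANOG losses, 52 OCT4 gains and 16 SOX2 gains. Without a count filter 1 SOX2 gain was called at 0.5 h. Scaled by total counts, SOX2 gave 1 gain and 1 loss at 0.5 h, 3 and 3 at 1 h and 4 gains at 6 h, with 3 differences from OCT4 at 2 h. With only the groups compared there were 3 NANOG losses at 2 h, 8 OCT4 gains at 24 h, and 13, 14 and 22 SOX2 gains and 12, 16 and 28 SOX2 losses at 2, 6 and 24 h, with 54 OCT4 and 105 SOX2 gains at the other pathway genes.

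Libraries share only a replicate number: deviations from group means correlated at 0.08 to 0.21 in SOX2-FKBP, 0.13 to 0.33 in OCT4-FKBP and -0.02 to 0.29 in NANOG-FKBP cells between libraries of the same number. All were positive in SOX2-FKBP and OCT4-FKBP cells, and the main fit has no replicate term. NANOG-FKBP NT replicate 2 correlated at -0.02 to -0.01 with the treated replicates 2. Its chromosome 8 share, 7.1%, was near that of the treated replicates 3 (7% to 7.08%) and not of the treated replicates 2 (5.51% to 5.8%). The block nevertheless pairs by number, and the NANOG block counts rest on that. With the replicate block, gains and losses were 3 and 4, 6 and 11, 13 and 9, 13 and 11, and 21 and 26 for SOX2 from 0.5 to 24 h, 20 and 9 at 2 h and 28 and 19 at 6 h for OCT4 with 26 gains at 24 h, and 1 and 10, 1 and 9, and 4 and 12 for NANOG. The block gave 11, 16 and 19 differences for SOX2 against OCT4, 17 for SOX2 against NANOG and 33 for OCT4 against NANOG, and 12 NANOG gains, 21 NANOG losses, 148 OCT4 gains and 106 SOX2 gains at the other pathway genes. The block also called 6 values at named peaks that had not passed, those of 4 promoters given in the report and that of Egr1 +27.59 kb at 24 h of OCT4 (0.55, adjusted p = 0.00884) and SOX2 depletion (0.50, adjusted p = 0.0348). With only the groups compared the Spry2 and Etv5 promoters passed at 24 h of SOX2 depletion (adjusted p = 0.00314 and 0.0264), and with DESeq2 the Dusp6 promoter at 24 h of OCT4 depletion (adjusted p = 0.0408).

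Leaving out 1 library at a time gave SOX2 losses of 0 to 1, 2 to 5, 2 to 4, 2 to 4 and 8 to 14 from 0.5 to 24 h and gains of 0 to 1, 1 to 4, 0 to 3, 1 to 2 and 4 to 8. OCT4 losses were 0 to 4, 1 to 10 and 16 to 27 and gains 3 to 7, 7 to 10 and 7 to 18, and NANOG losses 1 to 7, 1 to 6 and 3 to 7. Differences numbered 0 to 5, 3 to 9 and 2 to 7 for SOX2 against OCT4, 3 to 7 for SOX2 against NANOG and 8 to 17 for OCT4 against NANOG. At the other pathway genes SOX2 losses were 27 to 30 and gains 5 to 26, OCT4 losses 48 to 64 and gains 36 to 110, and NANOG losses 3 to 8 and gains 1 to 2. A group left with 1 library was assumed to vary like the others. Chosen after seeing the data, leaving out the treated NANOG-FKBP replicate 2 libraries or using the 5' ends of the gene records moved no count by more than 1.5 times. With the gene records OCT4 losses at 24 h numbered 41 and gains 11. The 5' end of the Fgfr2 record lies 2857087 bp from the one used, so its window is another region.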

Other observations

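Downstream of Egr1, accessibility differed between libraries of the same line, and these peaks were chosen after their values were seen. At +3.09 kb the NANOG-FKBP replicate 1 libraries had 39.9 to 49.1 normalized counts, NT replicate 2 had 181 and the treated replicates 2 and 3 had 142 to 411. The OCT4-FKBP NT libraries had 335 and 146 there, and the SOX2-FKBP libraries had 9.44 to 29.7. At +5.79 kb the NANOG-FKBP replicate 1 libraries, NT included, had 2.28 to 14.3 normalized counts and the other NANOG-FKBP libraries 139 to 567. OCT4-FKBP cells had 796 and 256 in NT and 221 and 52.8 at 24 h, and the SOX2-FKBP libraries had 1.76 to 10.8. Neither the line's background nor the state of the culture behind these values was tested.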
